A study of Mus musculus with 3 samples.

Results

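The genes described here are 39 genes of the cell division cycle, measured in macrophages of the mouse colon. They were chosen by name, as the rows whose gene symbol equals a listed member, and all 39 were found among the 23997 genes of the files. RNA-seq had been done on macrophages of male C57BL/6 mice, for which the labels give no treatment, sorted as negative for Siglec-F, low for Ly6C and positive for CD64, and 1 library was made for each of 3 genotypes. Tle3cKO mice carried floxed Tle3 with Lyz2-Cre, Tle4cKO mice carried floxed Tle4 with Lyz2-Cre, and the control mice, labelled WT, carried Lyz2-Cre alone, so Cre was present in every group. Lyz2-Cre is a knock-in at the lysozyme gene that acts in macrophages, monocytes and granulocytes. Cells of 3 Tle3cKO, 4 Tle4cKO and 4 WT mice were pooled by genotype, and their age is given as 9 weeks by the protocol but as 8.9 weeks by the sample labels. Since each genotype is 1 pooled library, no spread between mice was measured and no difference below has a replicate check, an error or a p-value.

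A dividing cell passes from G1 through S phase, in which DNA is copied, to G2 and mitosis, and pairs of cyclins and cyclin-dependent kinases (CDKs) drive each step. D-type cyclins with CDK4 or CDK6 start the release of E2F transcription factors from the retinoblastoma protein, E2F then switches on the replication genes, and the mitotic genes follow later through elements known as CHR and CCAAT boxes. CDK inhibitors such as p21, the product of Cdkn1a, hold the cycle back, and p21 is a classic target of p53. Macrophages of the adult gut are known to be renewed mainly from blood monocytes, with a smaller long-lived population that maintains itself.

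The promoters of the members differ in sequence features by role, and 6 are printed here. Cdc20, Cdk1, Ube2c and Kif11 are the mitosis members with the highest log2 ratios over WT in Tle4cKO, Mcm6 shows the E2F motif of a replication gene, and Cdkn1a is the member with the highest level. RefSeq promoters on the GRCm38.p6 build (250 bases before to 50 after a start) were found for 32 of the 39 members. Each line gives the 150 bases just before the start, 5′ to 3′ on the gene's strand, with matches to the searched motifs in capitals. The E2F motif was searched as TTTCCCGC, TTTCGCGC, TTTGCCGC or TTTGGCGC, the CHR as TTTGAA or TTCGAA, and the CCAAT box as CCAAT, all on both strands. E2F matches may overlap each other across strands.
Cdc20 (chr4:118437344-118437493, minus strand): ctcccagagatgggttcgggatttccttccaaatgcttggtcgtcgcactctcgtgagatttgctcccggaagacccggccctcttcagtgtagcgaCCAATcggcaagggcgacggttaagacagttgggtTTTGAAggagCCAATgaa
Cdk1 (chr10:69352913-69353062, minus strand): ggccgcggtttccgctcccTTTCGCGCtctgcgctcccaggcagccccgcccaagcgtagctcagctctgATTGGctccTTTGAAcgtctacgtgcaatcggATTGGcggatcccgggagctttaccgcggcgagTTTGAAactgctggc
Ube2c (chr2:164769779-164769928, plus strand): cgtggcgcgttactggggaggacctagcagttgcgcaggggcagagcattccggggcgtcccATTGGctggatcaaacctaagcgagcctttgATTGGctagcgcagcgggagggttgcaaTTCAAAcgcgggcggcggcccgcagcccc
Kif11 (chr19:37376232-37376381, plus strand): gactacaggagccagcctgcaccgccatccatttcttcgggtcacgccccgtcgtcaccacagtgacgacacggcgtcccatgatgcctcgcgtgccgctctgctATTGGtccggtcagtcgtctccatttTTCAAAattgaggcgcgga
Mcm6 (chr1:128359706-128359855, minus strand): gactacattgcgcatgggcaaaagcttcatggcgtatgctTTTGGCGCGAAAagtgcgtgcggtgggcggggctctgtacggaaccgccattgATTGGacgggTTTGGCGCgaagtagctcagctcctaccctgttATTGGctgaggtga
Cdkn1a (chr17:29090829-29090978, plus strand): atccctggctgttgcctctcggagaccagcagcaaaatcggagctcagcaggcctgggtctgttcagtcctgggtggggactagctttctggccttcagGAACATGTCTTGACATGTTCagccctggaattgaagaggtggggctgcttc

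In the mitosis group a CHR lay in the promoter of 11 of 13 genes (84.6%), against 16.4% of the 8429 genes that were expressed at a mean of at least 1 FPKM and had a promoter in the table. Cdc20, Cdk1, Ube2c and Kif11 each held a CHR together with a CCAAT box, and the matches within the printed bases are in capitals. CCAAT boxes were found in 12 of 13 mitosis genes (92.3%) and in 8 of 10 replication genes (80.0%), against 42.1% of the expressed genes. The E2F motif was found in 4 of 10 replication genes (40%), among them Mcm6, against 4.7% of the expressed genes and 1 of 13 mitosis genes. It was also found in 2 of the 4 G1/S genes with a promoter, E2f2 and Cdk2. The Cdkn1a line belongs to the upstream of its 2 starts in the table, and its capitals mark a p53 response element, a pair of adjacent sites with intact cores and at most 1 mismatch. That motif was added after the sequence had been seen, and it occurs in the promoters of 18 of the 27025 genes in the table (0.0666%). Among a list of other p53 target genes it was found in 0 of the 12 with a promoter. Matches of letters are a description of the sequence and not of binding.

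**Figure D1:**
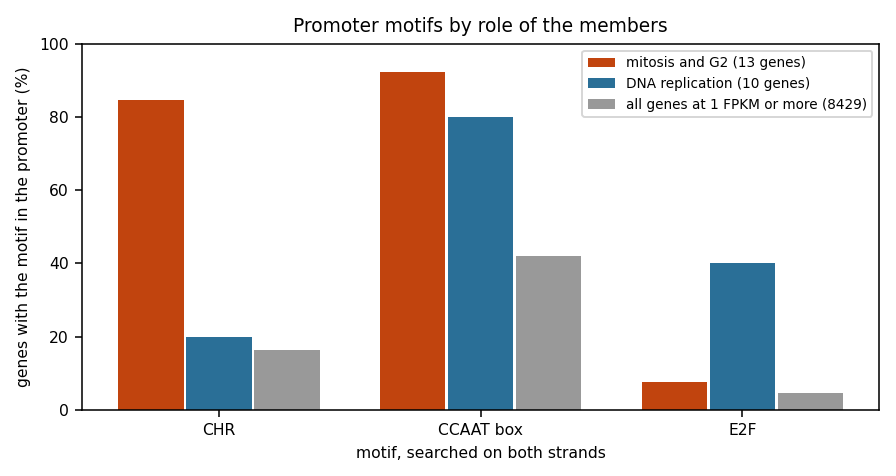
The bars give the share of genes (%) whose promoter held the CHR, CCAAT box or E2F motif, for the 13 mitosis and G2 members and the 10 DNA replication members with a promoter, beside the 8429 expressed genes. The CHR was found in 84.6% of the mitosis members against 16.4% of expressed genes, and the E2F motif in 40% of the replication members against 4.7%.

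Values are the deposited FPKM, by definition fragments divided by transcript length and by the mapped fragments of the library. Whether the values were also scaled between libraries is not known here. Their steps at low values put the depth of the library labelled Tle3cKO at 0.966 and that of Tle4cKO at 1.21 relative to WT, while the absolute depth is unknown, so no counting interval can be given. Tle3 stood at 70.7 FPKM in the library labelled Tle3cKO, 46.9 in Tle4cKO and 38.6 in WT, so it was not lower in the library that bears its name, and every direction drawn from that library rests on a label that the value goes against. Tle4 stood at 11.0 FPKM in the library labelled Tle3cKO, 5.80 in Tle4cKO and 8.50 in WT. A gene-level value need not fall when floxed exons are lost. All 14 macrophage markers were above 1 FPKM in all 3 libraries, with C1qb at 1191, 1309 and 1443 FPKM in the library labelled Tle3cKO, Tle4cKO and WT.

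The members were mostly low. Their median level was 5.38 FPKM in the library labelled Tle3cKO, 5.09 in Tle4cKO and 4.58 in WT, where the median of the 11114 genes averaging 1 FPKM or more was 10.5, 10.4 and 10.4. None was listed at 0 in any library. Between 27 and 28 of the 39 lay at 1 to 10 FPKM in each library. At or above 10 FPKM were 8 members in the library labelled Tle3cKO, 10 in Tle4cKO and 7 in WT. Only Ccnb1, Bub1 and Ccne2 missed a mean of 1 FPKM, and Plk1, at 0.96 FPKM in the library labelled Tle3cKO, 1.15 in Tle4cKO and 0.96 in WT, reached it through Tle4cKO alone. The 36 others are called tested below, although no test was possible.

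**Figure D2:**
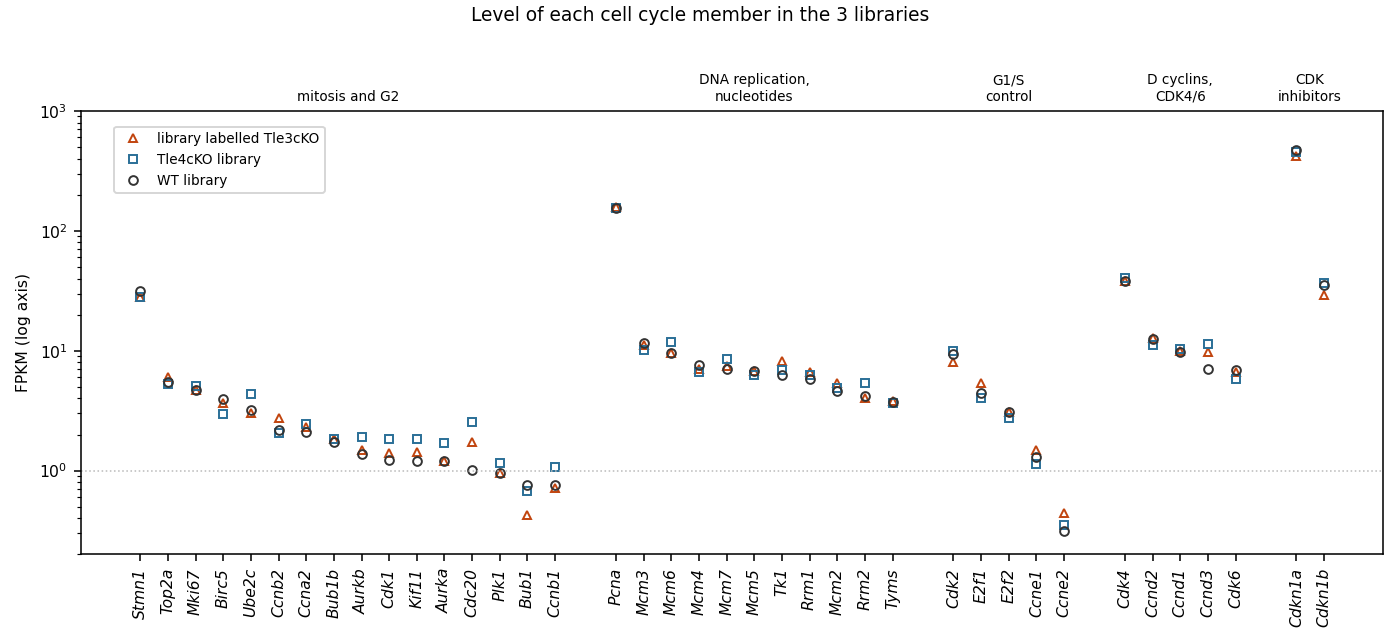
Each point is the FPKM of 1 member in 1 library, on a log axis, with the members grouped by role and ordered by their WT level. Most members lie between 1 and 10 FPKM, while Pcna and Cdkn1a lie far above in all 3 libraries.

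The highest member was the gene of p21. Cdkn1a (ENSMUSG00000023067.14, chromosome 17, 29090976 to 29100727, mm10) reached 423 FPKM in the library labelled Tle3cKO, 458 in Tle4cKO and 469 in WT, which made it rank 192, 183 and 181 of all genes. Cdkn1b, which encodes the inhibitor p27, was at 29.2, 36.7 and 35.3 FPKM in the same libraries. Of the kinases, Cdk2 was at 8.09, 9.99 and 9.31 FPKM and Cdk1, the mitotic kinase, at 1.40, 1.84 and 1.22, while Cdk4, at 38.1, 40.7 and 37.9, was above Cdkn1b in all 3 libraries. Some other known p53 targets were also abundant. Bax, a death effector, was at 189, 205 and 210 FPKM, and Mdm2, the ligase that degrades p53, at 136, 150.2 and 150.6. Both were named after the values of 15 listed p53 targets were seen. The median of the 15 was 19.2, 22.5 and 20.5 FPKM, and the lowest of them stood at 0.67, 0.17 and 0.33.

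Among the replication members Pcna, the clamp that holds DNA polymerase on its template, stood apart. It reached 159 FPKM in the library labelled Tle3cKO, 155 in Tle4cKO and 155 in WT (ENSMUSG00000027342.14, chromosome 2, 132249162 to 132253314). The MCM genes, whose 6 products form the ring-shaped replicative helicase, were far lower and close to each other. Mcm3 was highest of them in the library labelled Tle3cKO (11.1 FPKM) and in WT (11.5), and Mcm6 in Tle4cKO (11.8). Mcm2 was lowest in all 3, at 5.40, 4.87 and 4.58 FPKM. The highest was thus 2.06, 2.42 and 2.52 times the lowest in the library labelled Tle3cKO, Tle4cKO and WT. Pcna was 22.0, 20.3 and 21.01 times the median of the MCM genes. The enzymes of nucleotide supply lay beside the MCM genes: Rrm1, the large subunit of ribonucleotide reductase, at 6.64, 6.31 and 5.77 FPKM, its small subunit Rrm2 at 4.04, 5.38 and 4.22, thymidylate synthase Tyms at 3.79, 3.65 and 3.71, and thymidine kinase Tk1 at 8.20, 6.91 and 6.31.

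The mitosis members were the lowest group apart from Stmn1, which encodes the microtubule regulator stathmin and stood at 28.0 FPKM in the library labelled Tle3cKO, 28.1 in Tle4cKO and 31.2 in WT. Top2a, the topoisomerase that untangles chromosomes, was at 6.05, 5.26 and 5.53 FPKM, and the proliferation marker Mki67 at 4.75, 5.09 and 4.71. The cyclins Ccna2 and Ccnb2 were near 2 FPKM, at 2.30, 2.44 and 2.11 and at 2.72, 2.08 and 2.18. Ccnb1, the other mitotic cyclin, was at 0.71, 1.08 and 0.75, and the checkpoint kinase gene Bub1 at 0.42, 0.67 and 0.76. Without Stmn1 the 15 remaining mitosis members summed to 33.7, 36.8 and 31.9 FPKM. In a pooled sample, fewer dividing cells and less of these RNAs per cell cannot be told apart.

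Of the G1 genes, Cdk6, which like Cdk4 pairs with D-type cyclins, stood at 6.70 FPKM in the library labelled Tle3cKO, 5.84 in Tle4cKO and 6.92 in WT. The 3 D-type cyclins lay near each other, and their order differed between libraries. Ccnd2 was at 12.9, 11.2 and 12.5 FPKM and Ccnd1 at 10.005, 10.3 and 9.77, while Ccnd3 was at 9.70, 11.3 and 7.04. Ccnd3 was thus the lowest D-type cyclin in the library labelled Tle3cKO and in WT, and the highest, by a small margin, in Tle4cKO. It made up 29.8%, 34.5% and 24.0% of their summed FPKM. E2f1 and E2f2, activators of S phase genes, were at 5.38, 4.05 and 4.46 FPKM and at 3.10, 2.77 and 3.09. The E-type cyclins, which act with Cdk2 at the start of S phase, were lower, with Ccne1 at 1.496, 1.14 and 1.29 and Ccne2 at 0.45, 0.35 and 0.31.

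Setting the library labelled Tle3cKO against WT asks how these genes differ when Tle3, a Groucho-family corepressor, is targeted in myeloid cells. Differences are log2 ratios of FPKM plus a pseudocount of 1, which understates those of low genes, over the 11114 tested genes. The members differed little. A difference is counted below where the log2 ratio is at least 0.322 in size, written 0.32 from here on. Their median log2 ratio was 0.03, against -0.01 over all tested genes, and 24 of the 36 tested members were higher, against 47.6% of all tested genes. Counted over all 39 members, 25 were higher and 14 lower. Past 0.32 were 3 members, against 6.87% of all tested genes, and 0 were below -0.32, against 5.25%, so the shares are near those of all genes. Of 18 tested members with a mean under 5 FPKM only Cdc20 was past 0.32, as were 12.7% of all genes at 1 to 5 FPKM.

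Those 3 members act at different points of the cycle. Cdc20, which activates the anaphase-promoting complex in mitosis, stood at 1.74 FPKM there, against 1.01 FPKM in WT, a log2 ratio of 0.45 (ENSMUSG00000006398.15, chromosome 4, 118432901 to 118437352). Ccnd3 was at 9.70 and 7.04 FPKM, a log2 ratio of 0.41 (ENSMUSG00000034165.16, chromosome 17, 47505051 to 47599691). Tk1 was at 8.20 and 6.31, a log2 ratio of 0.33. Exons of all 3 overlap those of a neighbouring coding gene in the GENCODE annotation, namely Elovl1 for Cdc20, Bysl for Ccnd3 and Afmid for Tk1, and estimated values of overlapping genes are uncertain. Of all 39 members, 10 have such an overlap. Elovl1 was at 52.9 and 58.8 FPKM, Bysl at 4.85 and 4.05 and Afmid at 3.68 and 3.22, and the part of such overlaps in the ratios was not tested.

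The mitosis members had a median log2 ratio of 0.06 in this comparison, with 10 of 14 tested members higher. The replication members had one of 0.02, with 7 of 11 higher. Of all tested genes 47.6% were higher. For the mitosis members the median was -0.02 with a filter at 5 FPKM, which left only Stmn1 and Top2a. Both CDK inhibitors were lower in the library labelled Tle3cKO, Cdkn1b by a log2 ratio of -0.27 and Cdkn1a by one of -0.15. They stayed lower when libraries were scaled to equal totals (median of both -0.11, against 0.08 over all genes). Of 14 tested p53 target genes 11 were lower and 3 higher, with a median of -0.15, against -0.01 over all tested genes. With equal totals 9 were lower and 5 higher, with a median of -0.05, against 0.08 over all tested genes. The lowest log2 ratios on that list were those of Trp53inp1 (-0.41) and Bbc3 (-0.39), a stress-induced p53 cofactor gene and a death gene.

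**Figure D3:**
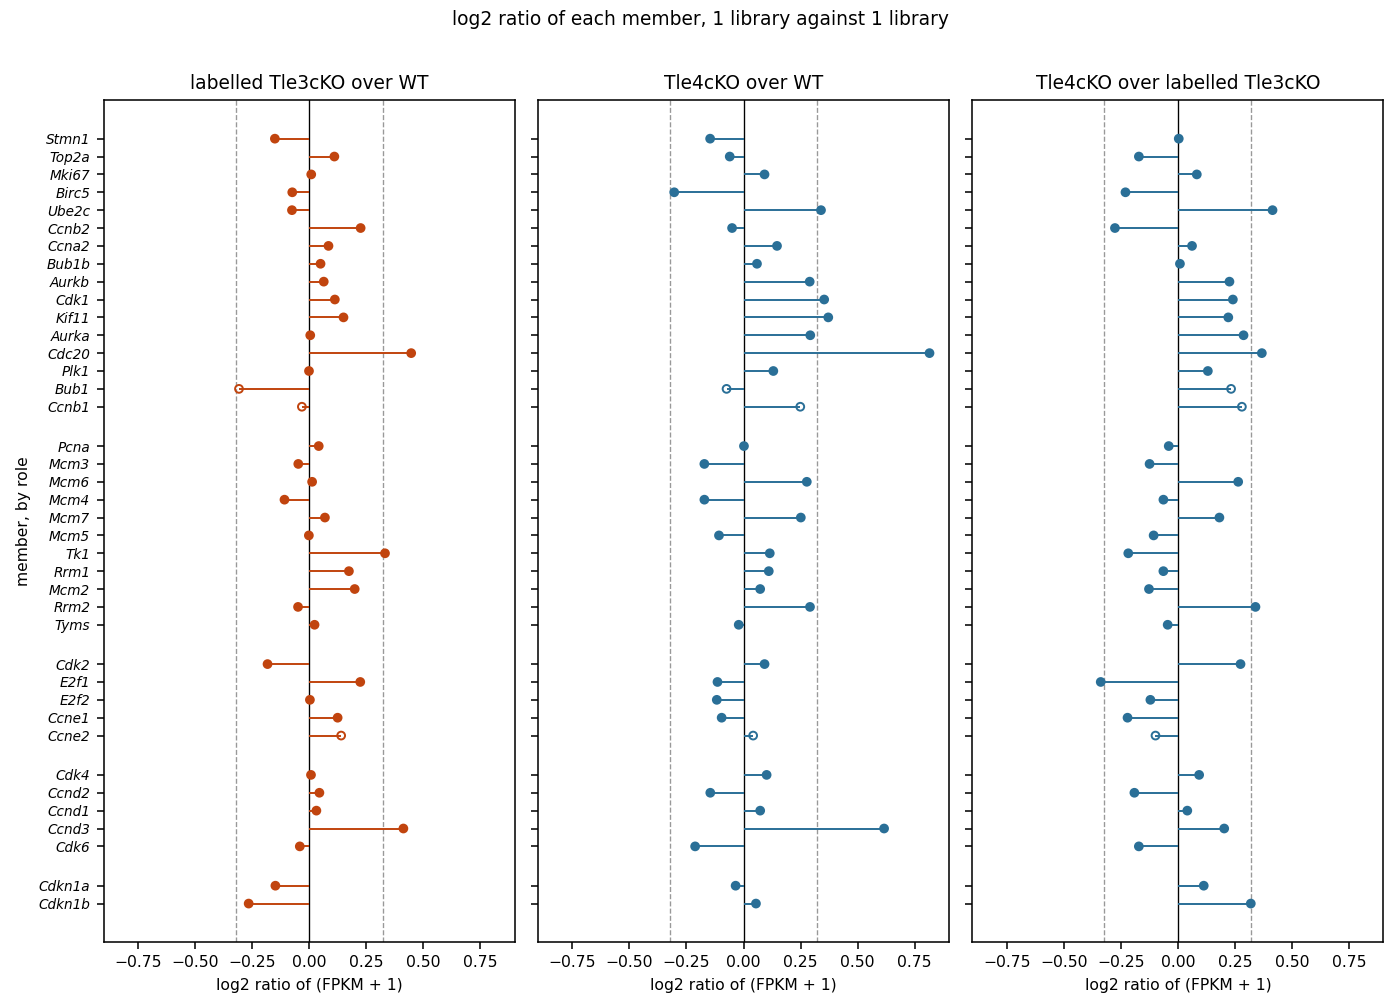
Points give each member's log2 ratio of (FPKM + 1) between 2 libraries, by role, with filled points for the 36 tested members, open points for the 3 below a mean of 1 FPKM, and dashed lines at 0.32 and -0.32. Cdc20 and Ccnd3 lie farthest from 0 in Tle4cKO over WT, at 0.82 and 0.62.

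The same question was put for Tle4 by setting Tle4cKO against WT. Most mitosis members were higher in Tle4cKO by small amounts, and Cdc20 and Ccnd3 were again the members with the highest log2 ratios. The median over the 36 tested members was 0.07, against -0.003 over all tested genes, and 22 were higher, against 49.4% of all tested genes. Over all 39 members, 24 were higher and 15 lower. Past 0.32 were 5 members, against 5.17% of all tested genes, and 0 were below -0.32, against 5.94%. Under a mean of 5 FPKM, 4 of 18 members were past 0.32, against 9.02% of all genes at 1 to 5 FPKM. The interquartile range of the log2 ratios was 0.356 over the tested members and 0.223 over all tested genes. Over all genes at 1 to 5 FPKM it was 0.308. The standard deviation went the other way, at 0.235 over the tested members and 0.276 over all tested genes. The comparison shares its WT library with the one above, so members that were higher in both can owe this to the WT value alone.

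Cdc20 was at 2.54 FPKM in Tle4cKO and 1.01 in WT, a log2 ratio of 0.82. In plain FPKM this is 2.51 times as much, and with a pseudocount of 0.1 the log2 ratio was 1.247, the size of the difference depending on how low values are treated. Its neighbour Elovl1 was at 54.9 and 58.8 FPKM. Ccnd3 was at 11.3 FPKM in Tle4cKO and 7.04 in WT, a log2 ratio of 0.62 that lay between 0.44 and 0.68 over the other settings, and its neighbour Bysl at 4.14 and 4.05. Kif11, a motor that separates the spindle poles, was at 1.85 and 1.199 FPKM (log2 ratio 0.37), Cdk1 at 1.84 and 1.22 (0.35) and Ube2c, the ubiquitin-conjugating enzyme of the anaphase-promoting complex, at 4.35 and 3.23 (0.34). Exons of Ube2c overlap those of Tnnc2, a muscle gene listed at 0 in Tle4cKO and at 0.23 FPKM in WT, while exons of Kif11 and Cdk1 overlap those of no other coding gene.

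The mitosis members had a median log2 ratio of 0.14. Higher in Tle4cKO were 10 of the 14 tested, against 49.4% of all tested genes, and 11 of all 16. The mitotic kinases Aurka (1.69 and 1.195 FPKM) and Aurkb (1.92 and 1.39) each had a log2 ratio of 0.29, and Plk1 had one of 0.13. Not all went that way. Birc5, which encodes survivin of the chromosomal passenger complex, was at 2.99 FPKM in Tle4cKO and 3.92 in WT (-0.30), Stmn1 at 28.1 and 31.2 (-0.15) and Top2a at 5.26 and 5.53 (-0.06). Mki67 differed little, at 5.09 and 4.71 (0.09). With a filter at 5 FPKM only Stmn1 and Top2a were left, with a median of -0.10, so the direction of this group rests on genes of 1 to 5 FPKM.

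Replication members had a median log2 ratio of 0.07, with 7 of 11 higher, against 49.4% of all tested genes. They went in both directions even within the MCM ring. Rrm2 (0.29), Mcm6 (0.28) and Mcm7 (0.25) were higher in Tle4cKO, while Mcm3 (-0.17), Mcm4 (-0.17) and Mcm5 (-0.11) were lower. Pcna differed by 0.002. The G1/S genes Ccne1 (-0.10), E2f1 (-0.11) and E2f2 (-0.12) were slightly lower and Cdk2 slightly higher (0.09). Cdk6 was lower (-0.21), Cdk4 higher (0.10), and the CDK inhibitors differed by -0.03 for Cdkn1a and 0.05 for Cdkn1b.

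**Figure D4:**
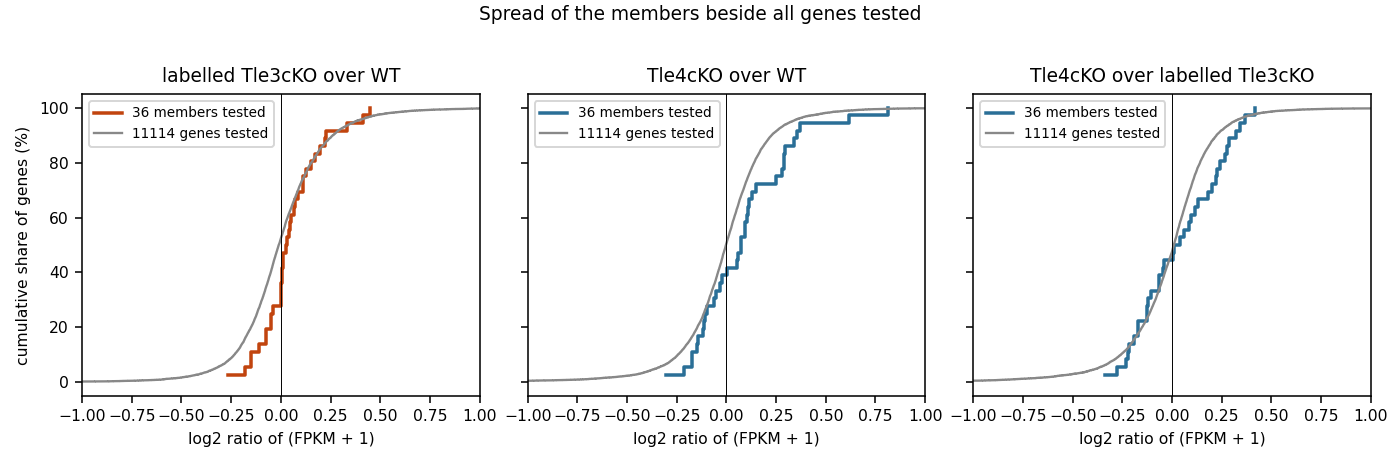
Step curves give the cumulative share of genes (%) at or under each log2 ratio of (FPKM + 1), for the 36 tested members and all 11114 tested genes. In Tle4cKO over WT the members' curve lies right of that of all genes over most of its range, with medians of 0.07 and -0.003, and in the other 2 panels the medians are 0.03 and -0.01, and 0.03 and 0.01.

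Between Tle4cKO and the library labelled Tle3cKO the median log2 ratio of the members was 0.03, against 0.01 over all tested genes, with 20 of 36 higher in Tle4cKO, against 52.4% of all tested genes. Cdc20, Ube2c and Rrm2 were past 0.32, against 4.59% of all tested genes, and E2f1 was below -0.32, against 6.77%. Of the 18 members with a mean under 5 FPKM, 3 were past 0.32, against 7.26% of all genes at 1 to 5 FPKM. Ube2c was at 4.35 FPKM in Tle4cKO, against 3.01 FPKM in the other, a log2 ratio of 0.42, and Rrm2 at 5.38 and 4.04, one of 0.34. E2f1 was at 4.05 and 5.38, a log2 ratio of -0.34. Among mitosis members 13 of 16 were higher in Tle4cKO, and among replication members 8 of 11 were lower, with medians of 0.11 over 14 tested and -0.06 over 11. With a filter at 5 FPKM the mitosis median was -0.08, over Stmn1 and Top2a alone. With equal totals the median over the tested members was -0.03, against -0.05 over all tested genes. Cdkn1b was higher by 0.3197, just short of that size, and Cdkn1a by 0.11.

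The mitosis and replication genes outside the 39 had median log2 ratios over WT between -0.009 and 0.06. Of 41 other mitosis genes, such as kinetochore, spindle and chromosomal passenger genes, 22 were tested. Their median log2 ratio was 0.004 in the library labelled Tle3cKO over WT and -0.009 in Tle4cKO over WT, and 0 of the 22 were past 0.32 in either. Below -0.32 were 3 of the 22 in the library labelled Tle3cKO, where 5.25% of all tested genes were, and 0 in Tle4cKO. Mad2l1, a spindle checkpoint gene, stood at 2.02 FPKM in the library labelled Tle3cKO, 3.27 in Tle4cKO and 3.36 in WT, and Pttg1, which encodes securin, at 15.95, 18.8 and 22.1. Of 44 other replication genes 36 were tested, with medians of -0.009 and 0.06. The second lies near the 0.07 of the replication members in Tle4cKO over WT. Past 0.32 were 3 and 2 of the 36, against 6.87% and 5.17% of all tested genes. Below -0.32 were 3 and 2, against 5.25% and 5.94%. Gins2, a subunit of the GINS complex that works with the MCM helicase, was higher than WT in each of the other libraries, at 4.67, 4.81 and 2.89 FPKM. Pola1, the catalytic subunit of DNA polymerase alpha, was lower, at 1.84, 1.73 and 2.71.

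Markers of other cell types also differed between these libraries. Colonic epithelial markers summed to 11.5 FPKM over 23 genes in the library labelled Tle3cKO, 53.1 in Tle4cKO and 5.68 in WT, with 3, 2 and 7 of them at 0. Past a log2 ratio of 0.32 over WT were 15 of the 23 in Tle4cKO, counted without the filter. Only 6 of the 23 were tested, so the 5.17% of all tested genes is not a like share. The goblet cell gene Spink4 was at 18.6 FPKM in Tle4cKO and listed at 0 in WT. The crypt stem cell genes Lgr5, Olfm4 and Ascl2 did not exceed 0.31 FPKM in any library. B and plasma cell markers summed to 297 FPKM in the library labelled Tle3cKO, 444 in Tle4cKO and 226 in WT over 15 genes. All 15 were higher than WT in each, against 47.6% and 49.4% of all tested genes. The immunoglobulin J chain gene Igj was at 57.9, 192 and 46.9 FPKM. Those of T, NK and innate lymphoid cells came to 451, 428 and 436 FPKM, most of it from Il7r at 342, 332 and 337. Next highest was Cd4 at 72.8, 62.5 and 71.8, while the T cell receptor complex gene Cd3e was at 1.55, 1.70 and 0.40. Monocyte markers summed to 205, 219 and 213 FPKM, most of it from Plac8 at 150.4, 156 and 146. Other monocyte markers were not level. Ccr2, the receptor that brings monocytes out of the bone marrow, was at 12.3, 28.3 and 28.3 FPKM, Ly6c2 at 5.98, 6.52 and 9.38 and Chil3 at 0.99, 0.08 and 2.50, while F13a1 was at 17.5, 12.7 and 10.6. Stromal and endothelial markers summed to 328, 300.5 and 280 FPKM, and macrophage markers to 5939, 6206 and 6756. The part of these cells in the members' values was not tested.

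**Figure D5:**
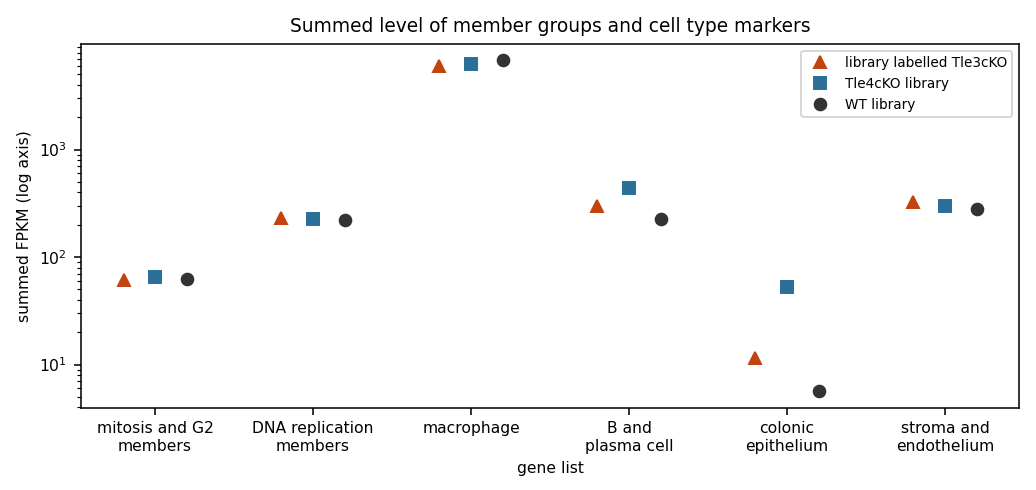
Points give the summed FPKM (log axis) of the mitosis and replication members and of 4 marker lists in each library. Epithelial markers sum to 11.5, 53.1 and 5.68 FPKM in the library labelled Tle3cKO, Tle4cKO and WT. In the same order the mitosis members sum to 61.8, 64.9 and 63.1 FPKM, and to 33.7, 36.8 and 31.9 without Stmn1. The replication members sum to 229, 225 and 222 FPKM, of which Pcna gives 159, 155 and 155.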

How the data were processed

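The authors deposited FPKM per gene, per the file headers, with 1 table for each library and the same genes in each. The submitters' processing notes name Cufflinks 2.2.1, TopHat2 2.1.0 and the mm10 build but not their roles. FPKM are not counts, so no count model was used, and with 1 library a group there was no test. Log2 ratios were taken on FPKM plus 1, for genes whose FPKM averaged 1 or more across the 3 libraries. The calculation was tested on simulated data. Relative depth is the commonest ratio of values under 0.3 FPKM. Identifiers and coordinates are from GENCODE M21 and promoters from RefSeq (GRCm38.p6). Listed symbols absent from the files were matched through RefSeq synonyms. Outside the members, genes were named by a rule: per list the 4 largest log2 ratios and, for markers, the 3 highest levels, of which a part is printed, and Bax, Mdm2, Rb1, E2f4, the overlapping neighbours and the crypt genes were named after their values were seen. The members and lists were chosen with earlier results of these data known. Settings tried besides were pseudocounts of 0.1 and 5, other filters, 3 scalings and other thresholds. Python 3.11.15, numpy 2.4.6, pandas 2.3.3 and matplotlib 3.10.9 were used.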

Additional observations from a re-analysis of the deposited data

How the results depend on the processing

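No paired analysis was possible because each group is 1 library, and no library could be left out for the same reason. The members' median moved by less than 0.1 on the log2 scale under all settings, lying between 0.01 and 0.11 for the library labelled Tle3cKO over WT, between 0.03 and 0.10 for Tle4cKO over WT and between -0.03 and 0.04 for Tle4cKO over the library labelled Tle3cKO. The 0.11 and the -0.03 came with equal totals, where the median over all tested genes was 0.08 and -0.05. The counts of members past a log2 ratio of 0.32 in size depended on how low values were treated. In the library labelled Tle3cKO over WT 3 were higher, and 0 with a pseudocount of 5 or at 1.5-fold or 2-fold. In Tle4cKO over WT 5 were higher and 0 lower, against 8 and 1 with a pseudocount of 0.1, 2 higher when it was 5, 1 higher with a filter at 5 FPKM, 2 higher at 1.5-fold and 0 at 2-fold. In Tle4cKO over the library labelled Tle3cKO 3 were higher and 1 lower, against 8 and 3 with a pseudocount of 0.1, 0 and 0 with a pseudocount of 5, with a filter at 5 FPKM and at 1.5-fold or 2-fold, and 2 lower with equal totals. Of all genes, at least 2-fold higher and lower in the same order of comparisons were 24 and 23, 18 and 54, and 23 and 58. These were 90 and 60, 55 and 104, and 50 and 145 with a pseudocount of 0.1, then 7 and 10, 7 and 15, and 9 and 12 when it was 5, and 11 and 14, 6 and 23, and 11 and 28 with a filter at 5 FPKM. With no filter the counts that moved were 35 lower in the first, 32 higher in the second and 40 higher in the last comparison, and with equal totals 40 higher in the first. At 1.5-fold they were 177 and 121, 134 and 189, and 99 and 238. A filter on the mean of only the compared libraries, chosen after seeing the data, left the counts within 1.5 times. Apart from the filters, thresholds and pseudocounts, whose construction sets which low genes count, the cause was not tested. Single members took the other sign in 9 of 269, 1 of 270 and 3 of 270 values over the settings. Most of these values could not change sign, since a pseudocount or a filter cannot reverse a ratio and only the 3 scalings can. With equal totals Birc5, Plk1, Ube2c, Mcm3, Mcm5, Rrm2 and Cdk6 went from lower to higher in the library labelled Tle3cKO over WT. Since the depth is unknown, no counting error can be given for any member.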

Other observations

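Pocket protein, DREAM complex and other E2F genes had median log2 ratios over WT near those of all tested genes, which were -0.01 and -0.003. Of 15 pocket protein, E2F and DREAM complex genes 14 were tested, with a median log2 ratio of 0.02 for the library labelled Tle3cKO over WT and -0.008 for Tle4cKO over WT. Rb1, the retinoblastoma gene, stood at 12.1 FPKM for the library labelled Tle3cKO, 11.7 for Tle4cKO and 12.6 for WT, and E2f4, a repressor E2F, was at 30.9, 29.5 and 30.5. E2f8, an atypical repressor of E2F targets, was at 2.64, 2.11 and 1.68 FPKM, with log2 ratios of 0.44 and 0.21 over WT. Among the other CDK inhibitors Cdkn2d, which binds CDK4 and CDK6, was at 5.46, 3.53 and 5.31 FPKM, a log2 ratio of -0.48 for Tle4cKO over WT, and Cdkn2b at 2.94, 2.32 and 1.90, a log2 ratio of 0.44 for the library labelled Tle3cKO over WT. No explanation was tested.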
